A study of Drosophila melanogaster with 8 samples.

Results

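The 50 genes described here encode seminal fluid and accessory gland products of male Drosophila melanogaster, and were taken by name from a table of 17655 genes. A gene belonged to the set when its name in the male table began with Acp or Sfp and a number, or with Mst57D, which gave 19 Acp, 28 Sfp and 3 Mst57D genes with 70 transcripts in all. Of the 50, 48 are annotated as accessory gland, seminal fluid or male-specific products. The remaining genes, Acp1 and Acp65Aa, met the rule through their abbreviation but are adult cuticle proteins in the deposited annotation, and they are kept apart below. The gene of the sex peptide, once called Acp70A, carries the name SP in the table and so fell outside the rule.

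The flies were of the wild-type strain Canton S and were adults 15 days old, sampled after 7 days of feeding on their diet and a last 2 h on standard food to clear the gut. Feeding was with normal food (ND), with a diet rich in fat (HFD), or with HFD to which either quercetin glucoside (QG, a flavonol linked to a sugar) or epigallocatechin gallate (EGCG, a green tea catechin) had been added. RNA came from whole bodies without wings or legs, so the reproductive tract was measured together with all other tissues. There was 1 library for each diet and sex, 8 in total, and the labels used here do not state how many flies made up a library, the doses or the make-up of the high-fat food. A difference between diets therefore has no replicate check, and none of the differences below carries a test.

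Seminal fluid proteins are made mostly in the paired accessory glands, whose main cells secrete the bulk of them and whose rarer secondary cells add others, and further products come from the ejaculatory duct and bulb. They are passed to the female with sperm at mating, where they are known to raise egg laying, lower the readiness to remate, form the mating plug and help sperm to be stored. Many are short secreted peptides, and others are protease inhibitors, lectins or proteases. The proteins encoded by the set were short, with a median of 96 amino acids per longest protein and 26 of 50 genes under 100 amino acids in the reference annotation.

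Values are FPKM, fragment counts scaled to transcript length and to library size, which the authors rounded to whole numbers per transcript, and which were summed per gene. The scaling to length lets levels of different genes be set side by side, with less certainty for very short transcripts, whose FPKM depend strongly on how the authors' software treats fragment length. This limit touches the 6 genes whose longest transcript is up to 250 nt, Mst57Db, Acp95EF, Acp98AB, Sfp96F, Sfp33A4 and Sfp79B, and so also the ranks and shares given next. It touches Sfp70A4 as well, where a transcript of 205 nt held 414 of 426 FPKM on ND. Sfp36F also has a transcript of 221 nt, which was at 0 to 4 FPKM in males. In males 48 of the 50 genes were above 0 in each of the 4 libraries. Their levels spanned more than 3 orders of magnitude, with 12 genes reaching at least 1000 FPKM, 31 reaching at least 100 FPKM and 17 peaking between 10 and 99 FPKM. Mst57Db stood first of all genes in every male library, at 39016 FPKM on ND, 34231 on HFD, 27482 on HFD+QG and 27656 on HFD+EGCG. Mst57Da and Acp95EF were also among the 10 highest genes in each male library. The order of the genes hardly differed between diets, with Spearman correlations across the 48 genes of 0.979 between ND and HFD and 0.995 between HFD+QG and HFD+EGCG. These correlations describe genes of the same libraries, which are not independent replicates.

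**Figure D1:**
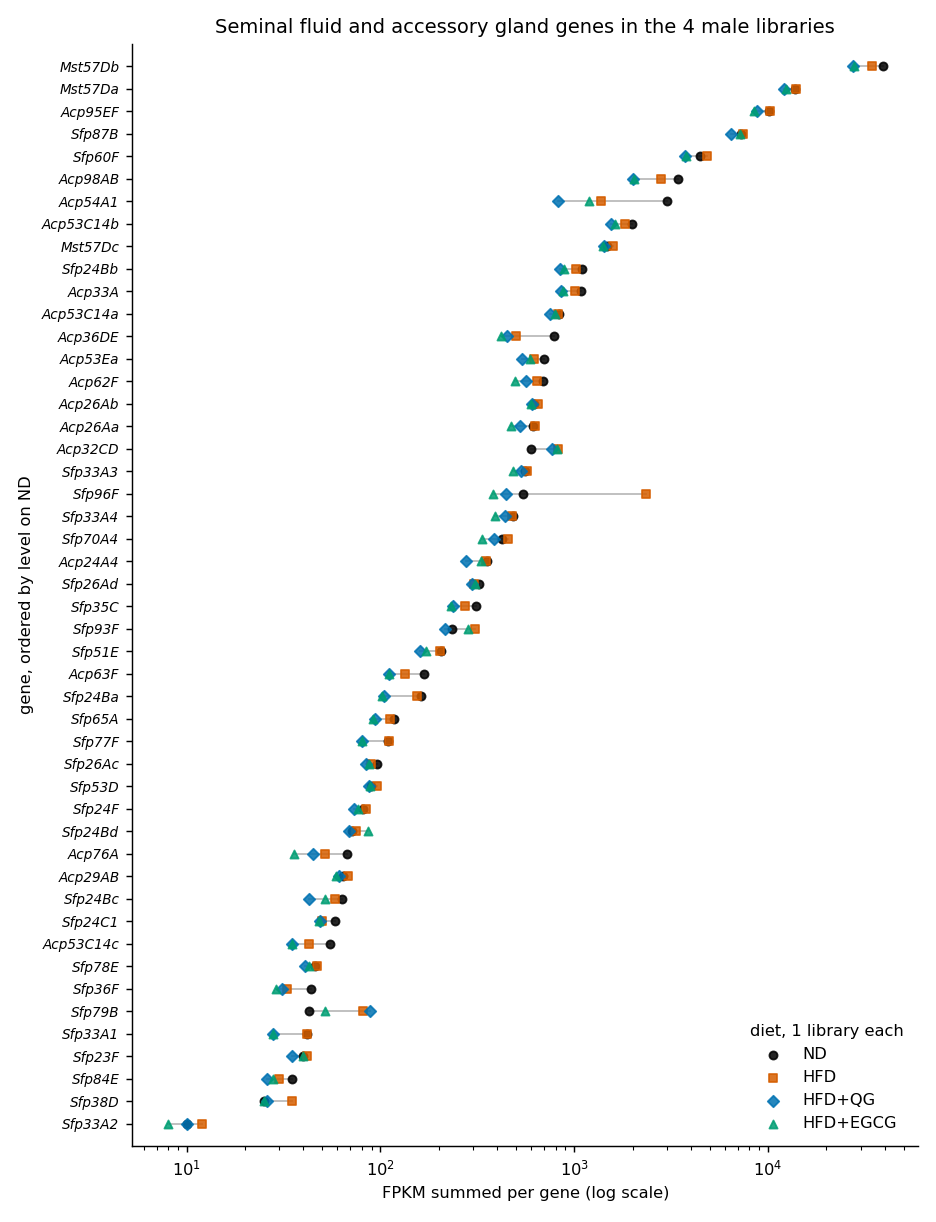
Level of the 48 expressed genes in the 4 male libraries, in FPKM on a log scale, with a line from the lowest to the highest library of each gene. Most lines are short against the distance between genes, and those of Sfp96F and Acp54A1 are the longest.

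The set held 10.3% of all summed FPKM in the male ND library, 9.17% on HFD, 8.02% on HFD+QG and 7.82% on HFD+EGCG. The ND library thus had the highest share and both supplemented libraries the lowest. In FPKM the sums were 96460, 91795, 74364 and 75778. Mst57Db alone made up 36.5% to 40.4% of the set's sum, and the 5 highest genes of each library 77.1% to 78.6%, so the share follows a few abundant peptides. Bulk RNA cannot tell fewer gland cells from less RNA per cell, and all levels below share this limit. The total FPKM of a male library lay between 927015 and 1000513.

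**Figure D2:**
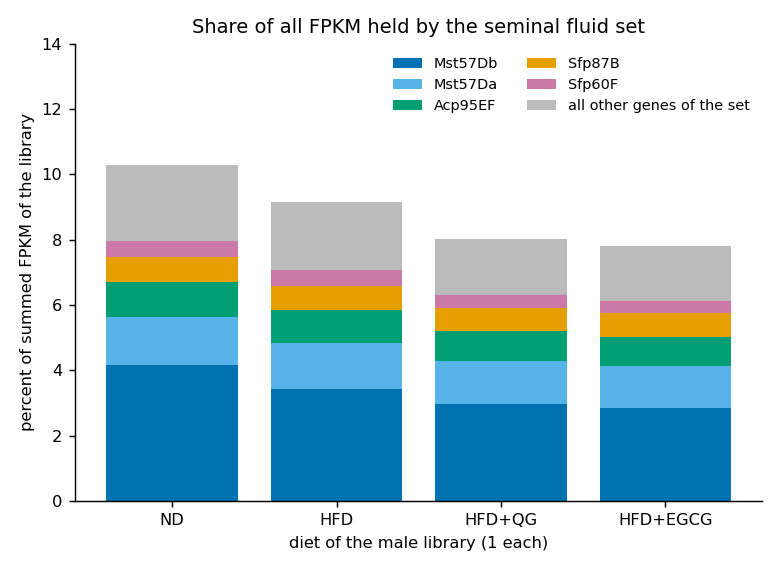
Percent of all summed FPKM in each male library held by the set, with the 5 genes highest on ND drawn apart. The bars go from 10.3% on ND to 7.82% on HFD+EGCG, and Mst57Db is the largest part of each.

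Female libraries gave the background, with the reservation that the tables of the sexes may have been scaled apart. Of the 50 genes 46 were listed at 0 in all 4 female libraries, and no gene exceeded 2 FPKM in any. Acp98AB was at 2 FPKM in the female ND library and at 0 in the other three. Mst57Db was at 1 FPKM in the female HFD library only, against at least 27482 FPKM in males. Sfp78E was at 1 FPKM in the female ND, HFD+QG and HFD+EGCG libraries and at 46, 47, 41 and 43 FPKM in the male ND, HFD, HFD+QG and HFD+EGCG libraries. Its exons overlap those of CG11248 on the other strand by 134 bp, and CG11248 was at 14 to 22 FPKM in both sexes. Acp65Aa, a cuticle gene, was at 1 FPKM in 3 female libraries and in the male HFD+EGCG library, and Acp1 was listed at 0 in all 8 libraries. The cuticle genes thus shared neither the level nor the sex of the other 48.

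Between diets, levels are compared as differences of log2(FPKM + 1), and a gene is called 2-fold different at a difference of at least 1 in either direction. The first comparison asks what the high-fat diet does in males. From ND to HFD 1 of 49 genes of the set with at least 1 FPKM in some male library, Sfp96F, was at least 2-fold higher, against 2.49% of the 13304 genes so described. Another, Acp54A1, was at least 2-fold lower, against 3.56% of all genes described. These shares are near that background, much of which lies at low FPKM. Of the 8363 genes at 10 FPKM or more in some male library, 59 were at least 2-fold higher and 145 lower. With 1 gene in each direction the shares are not compared further. The median difference of the set was -0.01. For 30 of the 48 expressed genes (62.5%) the HFD level was within 0.9 to 1.1 times the ND level, compared with 32.7% of the 1366 genes at 100 FPKM or more that were above 0 in all 4 male libraries. The median ratios were 0.991 and 1.09, so these limits lay around the middle of the set but not of the 1366 genes. Both shares are of deposited values, and the shares after rescaling were not computed. The set divided into 22 genes above and 25 below 0 as deposited, while all 13304 genes divided into 6612 and 3926. After rescaling, in which every male library was given the same sum, the set divided into 9 above and 38 below, with a median of -0.10, and all genes into 5764 and 7370. Many of all genes had the same whole number in both libraries as deposited. Rescaling moves such ties above 0 FPKM to the same side, so the split of all genes partly reflects rounding. Genes at 100 FPKM or more divided into 746 above and 620 below after rescaling. Among genes at 100 FPKM or more the median was 0.12 as deposited and 0.03 after that rescaling.

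The other comparisons ask what QG and EGCG do on top of HFD. Both use the same HFD library, so their values are given side by side and not as separate evidence. With QG the set's median was -0.21 and 47 of 49 genes were lower than on HFD. The share lower was 45% of all genes described and 70.6% of genes at 100 FPKM or more. At -0.10 the median kept its sign after rescaling to a common sum, with 40 genes lower and 6 higher, while 4163 of all genes were then lower and 8922 higher. The split of all genes again partly reflects ties between rounded values. Of genes at 100 FPKM or more 498 were then lower and 868 higher. With EGCG the median was -0.21, or -0.17 after rescaling, and 46 of 49 genes were lower. This compares with 49.8% of all genes described and 56.8% of genes at 100 FPKM or more. After rescaling 44 were lower, against 6329 of the 13304 genes and 666 of the 1369 genes at 100 FPKM or more. Sfp96F was the only gene at least 2-fold lower with QG (background 2.52%) and with EGCG (background 3.01%). No gene was at least 2-fold higher with QG (background 2.01%), and with EGCG only Acp65Aa was (background 2.07%), a step from 0 to 1 FPKM. Of the 8363 genes at 10 FPKM or more, 44 were at least 2-fold higher and 46 lower with QG, and 66 and 42 with EGCG. The differences were mostly small, with quartiles of -0.32 and -0.14 for QG and of -0.36 and -0.12 for EGCG. The distance between the quartiles was 0.18 for QG and 0.24 for EGCG, against 0.18 and 0.30 for genes at 100 FPKM or more. Genes at 100 FPKM or more had medians of -0.07 and -0.04, which turned to 0.04 and 0.01 after rescaling.

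The order of the 4 male libraries was described without any fold threshold. In 40 of 49 genes both supplemented libraries lay under both ND and HFD. This order was seen in 16.4% of all genes described and in 23.2% of genes at 100 FPKM or more. After rescaling to a common sum it was seen in 37 genes, against 14% and 18.6%. ND was the highest of the 4 libraries in 25 genes, against 21.2% of all genes and 24.7% of those at 100 FPKM or more. After rescaling ND was highest in 38 genes, against 31.0% and 32.6%. ND was the lowest in 2 genes, Acp32CD and Sfp79B, against 26.8% of all genes and 48.6% of those at 100 FPKM or more. The count was again 2 after rescaling, against 26.0% and 42.9%. In 0 genes were both supplemented libraries over both ND and HFD, against 7.4% and 10.7%. The genes share libraries and largely a gland, so these counts describe 4 libraries and not 49 independent observations.

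**Figure D3:**
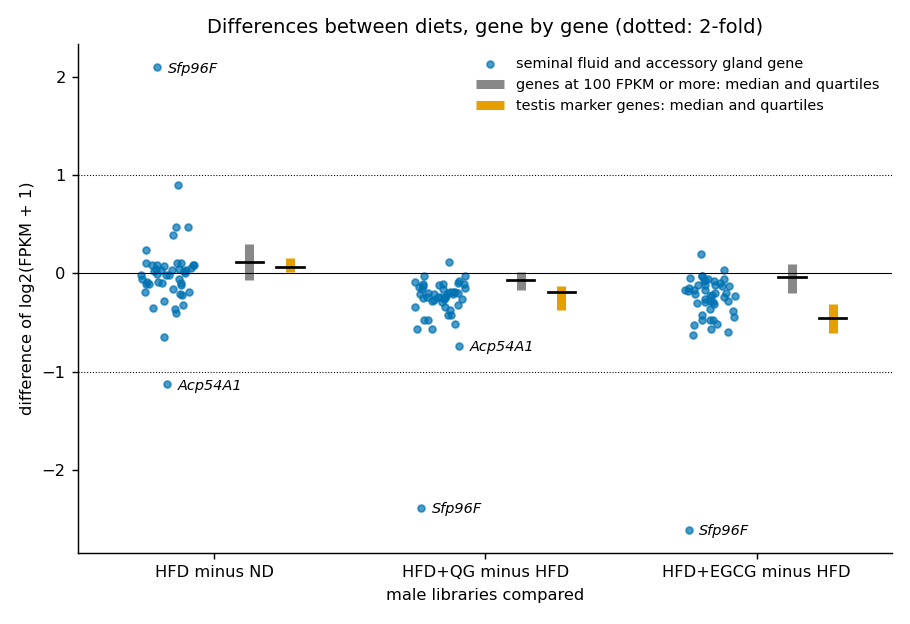
Difference of log2(FPKM + 1) for the 48 expressed genes in 3 comparisons of male libraries, with the median and quartiles of genes at 100 FPKM or more and of testis marker genes; dotted lines mark 2-fold. The points lie around 0 for HFD minus ND and mostly below 0 with either supplement, and Sfp96F and Acp54A1 stand apart.

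The Mst57D genes encode short secreted peptides annotated with roles in egg laying and behaviour after mating. They form a run of 4 genes with Sfp96F on the minus strand of chromosome 3R within 2579 bp (3R:25829321-25831899), in the order Mst57Dc, Sfp96F, Mst57Db and Mst57Da. Each of the 4 has 1 exon and 1 transcript. Mst57Db (3R:25830720-25830914), whose levels stand above, differed most of the 3 Mst57D genes, with 0.877 times the ND level on HFD and 0.803 and 0.808 times the HFD level with QG and EGCG. Mst57Da (3R:25831575-25831899) was at 13824 FPKM on ND, 14002 on HFD, 12126 on HFD+QG and 12430 on HFD+EGCG. Mst57Dc (3R:25829321-25829698) was at 1474, 1590, 1420 and 1414 FPKM in the same order. ND and HFD lay close together in both genes, with the supplemented libraries slightly under them.

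Sfp96F, a seminal fluid gene of no annotated molecular function, lies between Mst57Dc and Mst57Db at 3R:25830061-25830228. Its level was 545 FPKM on ND, 2332 on HFD, 445 on HFD+QG and 380 on HFD+EGCG. The HFD library stood above the rest, at 4.28 times ND, and HFD+EGCG was at 0.697 times ND. Its log2 differences were 2.1 for HFD against ND, -2.39 for QG and -2.61 for EGCG. Neither neighbour shared this, with HFD differences of 0.11 for Mst57Dc and -0.19 for Mst57Db. Sfp96F has the shortest transcript of the set, 168 nt, and encodes 33 amino acids. Among all genes with a longest transcript of up to 250 nt and at least 10 FPKM in some male library, 41.1% of 107 were at least 2-fold different between HFD and ND, against 1.36% of 6099 genes over 1000 nt. At 100 FPKM or more the shares were 17.2% of 29 and 3.55% of 789. The part of transcript length in the Sfp96F difference was not tested.

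**Figure D4:**
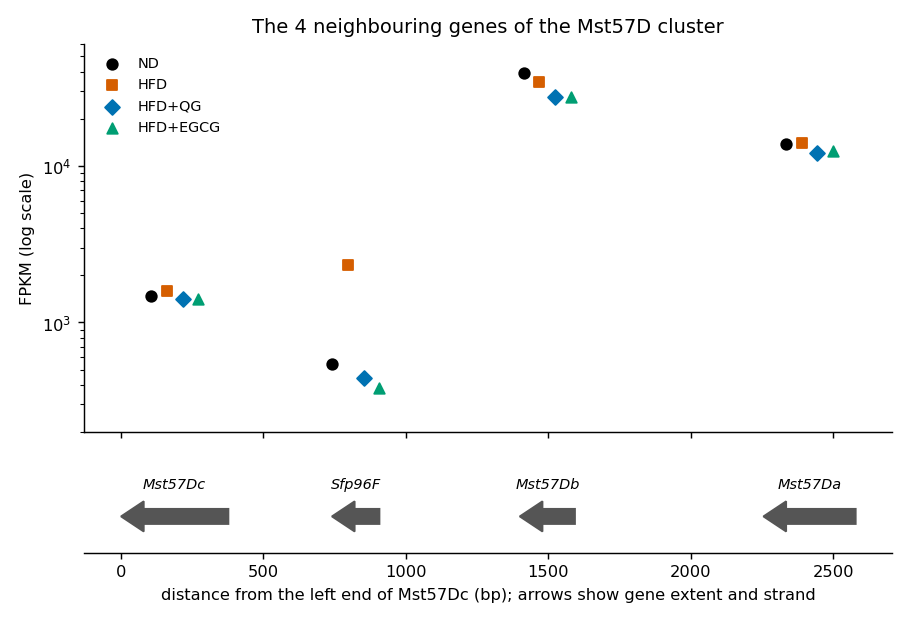
Levels of the 4 neighbouring genes in FPKM on a log scale, placed by distance along the chromosome from the left end of Mst57Dc, with arrows for gene extent and strand. Sfp96F in the HFD library, at 2332 FPKM, is the only point that stands apart from the others of its gene.

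Acp26Aa encodes ovulin, which stimulates ovulation in the mated female, and Acp26Ab is its neighbour on chromosome 2L. Acp26Aa (2L:5892883-5893896) was at 613 FPKM on ND, 630 on HFD, 526 on HFD+QG and 471 on HFD+EGCG. Acp26Ab (2L:5892298-5892862) was at 618, 653, 605 and 599 FPKM. The HFD library was highest for both, by log2 differences over ND of 0.04 and 0.08 that turned negative after rescaling to a common sum. With EGCG the difference from HFD was -0.42 for Acp26Aa and -0.12 for Acp26Ab, so the neighbours differed in size.

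Acp36DE, a large protein needed for sperm storage and found in the mating plug, was among the genes with the widest range. Its level was 786 FPKM on ND, 500 on HFD, 447 on HFD+QG and 417 on HFD+EGCG. The ND library was high and the 3 high-fat libraries lay near each other. HFD differed from ND by -0.65, which was -0.74 after rescaling, and both supplements differed from HFD by less, at -0.16 and -0.26. The gene has transcripts of 2845 and 2923 nt, of which the shorter was at 454 FPKM in the ND library against 215 FPKM with HFD, and the longer at 332 against 285 FPKM. How the authors' software divided reads between such similar transcripts is not known.

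Acp32CD, Acp33A and Acp98AB are annotated in the deposited table with hormone activity and with lowering female receptivity after mating. Acp32CD (2L:11015620-11016571) was at 597 FPKM on ND, 828 on HFD, 767 on HFD+QG and 813 on HFD+EGCG, a log2 difference of 0.47 between HFD and ND. It was thus lowest on ND, with the 3 high-fat libraries together, in contrast to most of the set. Acp33A (2L:11591339-11591678) was at 1088, 1014, 850 and 876 FPKM. Acp98AB (3R:27694883-27695057), whose transcript has 175 nt and which encodes only 25 amino acids, was at 3409, 2815, 2013 and 2027 FPKM. Acp33A and Acp98AB had ND highest and the supplemented libraries lowest, and Acp98AB differed from HFD by -0.48 with QG and -0.47 with EGCG.

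**Figure D5:**
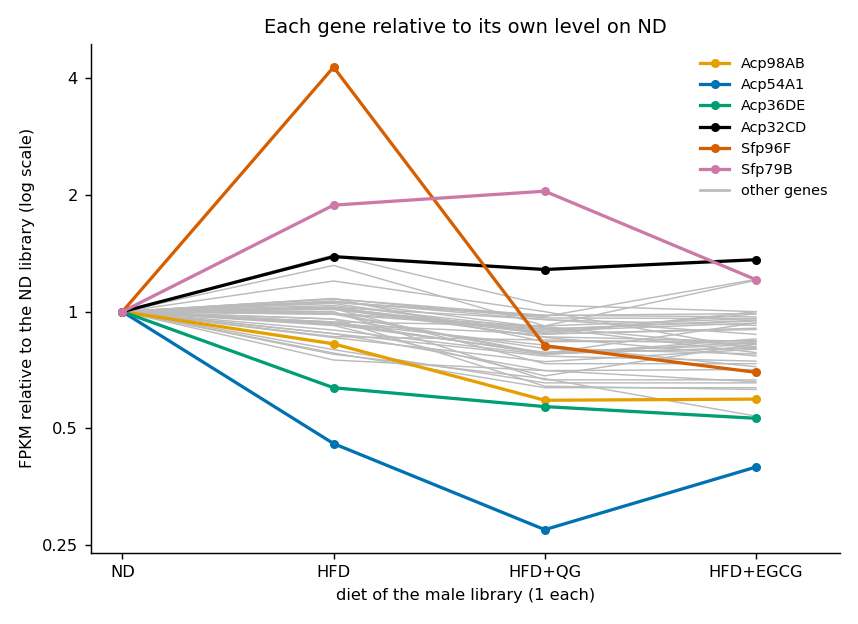
FPKM of each expressed gene divided by its own level on ND, on a log scale, with 6 genes of distinct profile in colour and the rest in grey. Sfp96F peaks at 4.28 on HFD, Acp54A1 is lowest on HFD+QG, and the grey lines stay mostly under 1 in both supplemented libraries.

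Protease inhibitors were the largest group of known molecular function, with 10 genes of Kunitz, Kazal, trypsin inhibitor-like or serpin type in the deposited annotation. Such inhibitors are thought to guard the proteins of the ejaculate from cleavage. All 10 were lower with QG than with HFD alone (median -0.23), 8 of them after rescaling to a common sum, and 9 of 10 were lower with EGCG (median -0.19), also after rescaling. The whole set was much alike, with 47 of 49 genes lower with QG and 46 with EGCG. Of genes at 100 FPKM or more 70.6% and 56.8% were lower. Between ND and HFD the median of the inhibitor genes was -0.08, with 3 genes above and 7 below 0, and after rescaling all 10 were below 0. The whole set had 22 above and 25 below 0, and 9 and 38 after rescaling.

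The most abundant inhibitor gene, Sfp24Bb of the Kunitz type, was at 1090 FPKM on ND, 1024 on HFD, 848 on HFD+QG and 881 on HFD+EGCG. Acp62F, a trypsin inhibitor-like protein with an annotated role in sperm competition, was at 687, 643, 563 and 495 FPKM. Sfp33A3, of the Kazal type, was at 555, 569, 530 and 485 FPKM. These 3 genes had their lowest level in a supplemented library. The Kunitz genes Acp24A4 and Sfp24Ba were at 355, 352, 277 and 332 FPKM and at 162, 155, 104 and 102 FPKM, and Sfp24Ba had the largest difference of the group for QG, at -0.57, and for EGCG, at -0.60. The serpin gene Acp76A was at 67 FPKM on ND, 52 on HFD, 45 on HFD+QG and 36 on HFD+EGCG, a range of 1.86-fold. Sfp24Bd was the exception with EGCG, at 75 FPKM on HFD and 86 on HFD+EGCG. The remaining inhibitor genes Sfp24Bc, Sfp24C1 and Sfp23F lay between 35 and 63 FPKM.

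The C-type lectins Acp29AB, which is known to help sperm stay in storage, and Sfp24F differed little between diets, at 59 to 68 and 73 to 84 FPKM, with a highest to lowest ratio of 1.15 in both. As in 40 of 49 genes of the set, the supplemented libraries lay under both ND and HFD in each lectin gene, and HFD was highest. The Acp53 family, 4 related secreted proteins encoded side by side on chromosome 2R with Sfp53D (2R:16744295-16751495), had the supplemented libraries under both ND and HFD in all 4 genes. Acp53C14b was at 1973 FPKM on ND, 1826 on HFD, 1550 on HFD+QG and 1622 on HFD+EGCG. Its relative Acp53C14a was at 836, 823, 753 and 791 FPKM, and Acp53Ea at 695, 623, 538 and 591 FPKM. Acp53C14c, the least abundant, was at 55 FPKM on ND, 43 on HFD and 35 with either supplement. All 4 were lower on HFD than on ND, by -0.35 to -0.02, and lower with each supplement than on HFD, under both scalings.

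Acp54A1 (2R:17133445-17133750), a gene without a known function that encodes 46 amino acids, was the only gene of the set at least 2-fold lower on HFD than on ND. It was at 3015 FPKM on ND, 1376 on HFD, 825 on HFD+QG and 1197 on HFD+EGCG. ND was thus 3.65 times the lowest library, HFD+QG, and no high-fat library came near it. The log2 difference was -1.13 for HFD against ND, -0.74 for QG and -0.20 for EGCG. Its single transcript of 306 nt overlaps no other gene of the reference annotation.

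The most abundant genes of this kind were steadier. Acp95EF was at 10123 FPKM on ND, 10285 on HFD, 8716 on HFD+QG and 8482 on HFD+EGCG. Sfp87B was at 7236, 7388, 6397 and 7143 FPKM, and Sfp60F at 4461, 4826, 3731 and 3753 FPKM. All 3 were within 1.29-fold from lowest to highest library, with HFD highest. Acp95EF lies with all 243 nt of its exons inside exons of Spase22-23 on the other strand, a signal peptidase gene at 82 to 165 FPKM in the 8 libraries, and Acp95EF was listed at 0 in every female library.

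A further 7 genes of no known function lay between 100 and 1000 FPKM on ND with ranges of at most 1.39-fold, leaving aside Acp63F and Sfp93F. Sfp33A4 was at 482 FPKM on ND, 477 on HFD, 441 on HFD+QG and 391 on HFD+EGCG, and Sfp70A4 at 426, 454, 387 and 334 FPKM. Sfp26Ad was the steadiest of them at 321, 302, 295 and 308 FPKM. The levels of Sfp35C were 310, 272, 238 and 231 FPKM, and those of Sfp51E 206, 203, 160 and 172 FPKM. For Sfp65A they were 117, 112, 94 and 91 FPKM, and for Sfp77F 109, 111, 80 and 80 FPKM. In each of these genes but Sfp26Ad both supplemented libraries were under ND and HFD. Acp63F was at 168, 134, 110 and 110 FPKM, and Sfp93F, which had no such order, at 234, 308, 215 and 282 FPKM.

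Below 100 FPKM, Sfp79B (3L:22080322-22080554) had the largest relative difference, at 43 FPKM on ND, 81 on HFD, 88 on HFD+QG and 52 on HFD+EGCG. Of the 48 expressed genes it had the largest difference between the supplements, -0.75 for EGCG minus QG, and it too is short, with a transcript of 233 nt. Sfp38D was highest on HFD, at 35 FPKM against 25 or 26 in the other male libraries. The other 7 genes of no known function under 100 FPKM, Sfp26Ac, Sfp53D, Sfp78E, Sfp36F, Sfp33A1, Sfp84E and Sfp33A2, lay between 8 and 96 FPKM with ranges of at most 1.52-fold. At these levels rounding to whole FPKM is itself a visible step.

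The 2 supplements gave much the same levels for the set, as far as 1 library each can show. In 33 of 48 expressed genes the HFD+EGCG level was within 0.9 to 1.1 times that with QG, the median ratio was 1.00, and 8 genes were below and 7 above those limits. Of genes at 100 FPKM or more 55.6% were within them. These values are as deposited. After rescaling to a common sum 16 of 49 genes were higher with EGCG than with QG and 33 lower, at a median log2 difference of -0.06. Genes at 100 FPKM or more had the same median, with 471 higher and 895 lower. Without replicates no interval can be put on the difference between the compounds, and the labels do not give their doses.

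By position, 24 of the 50 genes lay on 2L, 8 on 2R, 9 on 3L and 9 on 3R, and 22 of them fell into 5 clusters of genes less than 50 kb apart. The cluster on 2L around the Sfp24B genes (2L:3667977-3701092) held 6 inhibitor genes, from 58 to 1090 FPKM on ND, whose HFD differences stayed within -0.21 to 0.08. In the 4 clusters without Sfp96F the HFD differences lay between -0.35 and 0.24. Of the 50 genes 17 overlapped another gene, 16 of them only on the other strand. In 14 of the 17 the overlap spared all exons, so that the gene sits within an intron, and Acp95EF, Sfp78E and Sfp84E had exon overlap with an antisense gene. The library kit keeps strand, and whether the authors' counting used it is not given in the sources used here.

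Genes from other lists around the seminal fluid were described by the library order that 81.6% of the set had. None of them is a member of the set, and not all were male-specific in these data. Esp was at 2 FPKM in each male library and at 8 to 10 FPKM in females, and Ggt-1 at 46 to 54 and 67 to 120 FPKM. In the same order frma was at 15 to 17 and 8 to 18 FPKM, and hdly at 32 to 45 and 19 to 43 FPKM. The counts include such genes. Both supplemented libraries lay under both ND and HFD in 3 of 13 genes of the sex peptide network, 4 of 7 of the ejaculatory duct and bulb, 3 of 7 odorant-binding proteins, 4 of 7 serpins and 8 of 20 others, against 23.2% of genes at 100 FPKM or more. The sex peptide network, as listed here, holds SP and genes linked to the binding of the sex peptide to stored sperm. Its list includes frma, hdly and Esp, which were also present in females. The network's median difference was 0.16 for HFD against ND (0.07 after rescaling), with 9 of 13 genes above 0, 2 below and none 2-fold different. This share of 69.2% above 0 was near the 69% of genes at 100 FPKM or more. With QG its median was -0.12, or -0.01 after rescaling, and with EGCG 0.00, or 0.03. SP itself was at 4570 FPKM on ND, 5566 on HFD, 4486 on HFD+QG and 4545 on HFD+EGCG, with HFD highest. The lectin genes lectin-46Ca and lectin-46Cb were at 244, 353, 335 and 362 FPKM and at 204, 285, 268 and 285 FPKM, and the network gene CG17575 at 329, 466, 429 and 472 FPKM. These 3 genes were low on ND alone, the order seen for Acp32CD. The protease homologue gene aqrs was at 140, 148, 129 and 133 FPKM.

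Products of the ejaculatory duct and bulb had a median of -0.24 for HFD against ND (5 of 7 genes below 0), -0.33 with QG and -0.26 with EGCG, negative under both scalings, and none was 2-fold different. Of genes at 100 FPKM or more 30.6% were below 0 for HFD against ND. Est-6, the esterase of the duct, was at 590 FPKM on ND, 472 on HFD, 321 on HFD+QG and 312 on HFD+EGCG. The mating plug protein gene Ebp was at 1568, 1371, 1042 and 1141 FPKM and its relative EbpII at 8878, 8946, 7120 and 7183 FPKM. Dup99B, the duct peptide related to the sex peptide, was listed at 0 in all 8 libraries, which may be an estimate that failed. EbpIII and CG18067, both also at 627 FPKM or more in females, did not have the supplemented libraries lowest, at 1824, 1875, 2123 and 2045 FPKM and at 1053, 849, 1071 and 994 FPKM.

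Serpins of the seminal fluid outside the set had medians of 0.00, -0.32 and -0.32 in the 3 comparisons, with 5 of 7 genes below 0 with either supplement and none 2-fold different. Of genes at 100 FPKM or more 70.6% were below 0 with QG and 56.8% with EGCG. Spn77Bc was at 497 FPKM on ND, 382 on HFD, 217 on HFD+QG and 237 on HFD+EGCG, and Spn28F at 324, 246, 157 and 164 FPKM. Spn77Bb was at 211, 266, 148 and 195 FPKM, while Spn38F was low on HFD alone, at 241, 177, 229 and 221 FPKM. Spn75F was at 112, 112, 105 and 93 FPKM. Seminal odorant-binding protein genes had medians of 0.00, -0.12 and -0.06, or -0.09, -0.01 and -0.02 after rescaling, and the bulb product Obp56g was at 1828, 1868, 1707 and 1941 FPKM. Obp51a was at 568, 532, 451 and 455 FPKM and Obp22a at 110, 110, 98 and 99 FPKM. The 20 genes listed as other seminal fluid genes had medians of 0.00, -0.11 and -0.06, or -0.08, 0.00 and -0.02 after rescaling. Among them CG17097, a predicted lipase gene, was at 796, 546, 471 and 478 FPKM. CG31872 was at 590, 447, 394 and 384 FPKM and CG5162 at 360, 250, 182 and 183 FPKM, both highest on ND. In contrast scpr-A, scpr-B and scpr-C were lowest on ND and highest on HFD+QG. They were at 192, 201, 234 and 215 FPKM, at 85, 92, 112 and 96 FPKM, and at 209, 240, 268 and 240 FPKM. Of the 20 genes 8 had ND highest and 4 had ND lowest, and 3 had both supplemented libraries over both ND and HFD.

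Regulators of the accessory gland were all under 100 FPKM. The transcription factor gene prd, needed for the gland to form, was at 16 FPKM on ND, 20 on HFD, 21 on HFD+QG and 18 on HFD+EGCG, and was listed at 0 in females. The list of 8 had medians of -0.01, 0.06 and -0.11. Genes of protein secretion, which all tissues use, had a median of 0.24 for HFD against ND, 0.15 after rescaling, with 15 of 16 above 0, and medians of 0.00 and -0.01 with QG and EGCG, or 0.11 and 0.04 after rescaling.

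Testis genes were set beside the gland genes as the other large male-specific source of RNA. Not all of the markers used were male-specific in these data, and the values below include them all. In the female ND library vas, CycB3, twe and bam were at 81, 160, 43 and 15 FPKM. They were at 2, 12, 15 and 0 FPKM in the male ND library. The 31 testis markers summed to 5151 FPKM on ND, 5434 on HFD, 4638 on HFD+QG and 3735 on HFD+EGCG, and none of them was at 0 in all male libraries. Their median difference was 0.06 for HFD against ND, which turned to -0.03 after rescaling, -0.19 with QG and -0.45 with EGCG. In the seminal fluid set the corresponding medians were -0.01, -0.21 and -0.21. Testis markers were thus lower with EGCG than with QG (median -0.29), while the set had a median of 0.01 between the same libraries, or -0.06 after rescaling. Both sets were lower in the supplemented male libraries than on HFD, and the part of the testis in the set's values was not tested. Muscle markers, at 19 of 19 above 0, summed to 6460, 8921, 7753 and 8270 FPKM. Their median was 0.47 for HFD against ND, -0.21 with QG, as in the set, with 17 of 19 genes below 0 (70.6% of genes at 100 FPKM or more), and -0.13 with EGCG. After rescaling the medians with QG and EGCG were -0.10 and -0.08, and the part of muscle in the set's values was not tested. Midgut markers, at 12 of 12, summed to 9684, 8041, 6019 and 8974 FPKM, with medians of -0.67, -0.36 and 0.01. Fat body markers, of which 7 of 10 were above 0 in some male library, summed to 988, 592, 624 and 543 FPKM, with medians of -0.71, 0.00 and -0.35, and the part of midgut and fat body was not tested either. Of 13 egg and yolk markers 11 were at 0 in all male libraries.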

How the data were processed

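Reads were processed by the authors. The submitters' processing notes list CASAVA 1.8.2, Cuffdiff 2.2.1 and TopHat2 2.1.1. Parameters, genome build and scaling between libraries are not given in the sources used here. The deposited values are FPKM per FlyBase transcript, per the file headers, rounded to whole numbers by the authors and therefore handled as a score without counts. Depth is unknown, so no counting interval is given, and a transcript at 0 can hold up to 0.5 FPKM or be a failed estimate.

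Transcripts were summed per gene identifier with pandas 2.3.3 in Python 3.11.15. Differences are of log2(FPKM + 1), which understates changes at low FPKM, among genes of at least 1 FPKM in 1 or more male libraries, with a threshold of 2-fold. With 1 library per group no test was made. The step was tested on simulated data. Positions are those of the deposited annotation, and 49 of 50 matched BDGP6.54 (Ensembl 115) in start and end. Acp36DE did not. Lengths, exons and overlaps come from that reference.

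The genes and lists were chosen with earlier results of these data known. Genes of the set were named with values at 100 FPKM or more in a male library. Those at least 2-fold different at 10 FPKM or more, and those at 1 FPKM or more in a female library, were also named. Of the other lists only some genes at these levels were named. Groups by role came from the deposited annotation, after values were seen. Sfp79B, Acp53C14c and other genes under 100 FPKM, and also scpr-A, scpr-B and scpr-C, were named after their values were seen. Alternatives were a common sum per library, centring on the median gene, pseudocounts of 0.5 and 5, other filters, the largest transcript per gene and smaller gene sets.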

Additional observations from a re-analysis of the deposited data

Results flagged for a closer look

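Acp65Aa, an adult cuticle gene, differed in opposite directions between the sexes from HFD to HFD+EGCG, by 1.0 on the log2(FPKM + 1) scale in males and by -1.0 in females. Both are steps between a listed 0 and 1 FPKM in 1 library each, and whether the sexes differ was not tested.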

How the results depend on the processing

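Of 118 recomputed values 99 stayed close to the one reported, 19 moved and 0 changed sign. Centring on the median gene left the set's medians and 2-fold counts as they were, because the median of all genes was 0.0 in each comparison. Dropping the filter on low values only added Acp1, at 0, to the set. The values from these settings are among the 99 but are no check. Close means a count within 1.5 times, a median within 0.1 or a share within 5% of itself. Rescaling to a common sum moved the QG median from -0.21 to -0.10. The 1 gene at least 2-fold higher with EGCG, Acp65Aa, became 0 with a common sum, a pseudocount of 5, either filter at 10 FPKM or without the cuticle genes. Genes whose longest transcript is 250 nt or less were left out in a setting chosen after seeing the data. Sfp96F then left the set and its counts of 1 became 0 in each comparison. Genes lowest on ND went from 2 to 1, as they did with single-transcript genes only. The set's share, in the order of diets used above, was 11.2%, 9.98%, 8.74% and 8.48% with the largest transcript per gene, and 10.9%, 9.69%, 8.50% and 8.40% without mitochondrial genes. The cause was not tested. Over all genes a common sum changed the 2-fold counts from 331 higher and 474 lower to 99 and 490 for HFD against ND, from 267 and 335 to 273 and 80 for QG, and from 275 and 401 to 137 and 84 for EGCG. No paired analysis was possible because each diet has 1 male library and the labels give no replicate numbers.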
